A study of Mus musculus with 10 samples.

Results

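Soleus, a slow postural muscle of the calf, was compared with psoas, a fast muscle that flexes the hip, across all genes measured. The 7 libraries were chosen by their labelled muscle, 4 from soleus and 3 from psoas, out of 10 libraries in the series. The other 3 libraries came from EDL, a fast muscle of the lower leg, and are given beside the pair only where they place a difference. The contrast joins fiber type with body position, and within these 7 libraries their effects cannot be told apart.

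All mice were homozygous wild-type animals of a colony raised from B6C3Fe a/a-Ttnmdm/J stock. The labels name no treatment, but the mice were also part of another study, and what that study did to them is not given in the sources used here. Soleus 1 to 4 came from mice of 42, 44, 32, and 44 days, and psoas 1 to 3 from mice of 42, 54, and 44 days. The labels give psoas as male, male, and female, and soleus as male, female, not given, and female. EDL 1 to 3 came from mice of 42, 54, and 44 days, labelled male, male, and female. Soleus 1 and psoas 1 carry the animal code 659, and soleus 4 and psoas 3 carry the code 765B. Soleus 2 and EDL 3 are coded 765A. The methods count fewer mice than the labels have codes, so 765A and 765B may be the same mouse. The p-values therefore measure the spread between these libraries. Whole muscles were sequenced, so that fewer cells of a type and less RNA per cell cannot be told apart.

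Total counts ranged from 12737971 to 26848423 in soleus and from 13820086 to 50431713 in psoas. Levels are given as CPM, the counts of a gene scaled to the library total after TMM correction, always in the order soleus 1 to 4 and psoas 1 to 3. The genes Ddx3y and Xist separated the libraries labelled male from those labelled female. Ddx3y was at 134, 0.0299, 186, and 0.264 CPM in soleus and at 144, 180, and 0.142 CPM in psoas. Xist was at 0, 34.4, 0, and 34.5 CPM in soleus and at 0.0792, 0, and 37.3 CPM in psoas. Soleus 3, which has no sex label, lay with the libraries labelled male for both genes. Fold changes are soleus over psoas on the log2 scale with their standard error, from edgeR's quasi-likelihood fit over the 10 libraries, and adjusted p values are Benjamini-Hochberg values from that fit. Genes were called where the adjusted p was below 0.01 and the difference more than 2-fold. The reads of psoas 1 and 2 were quality-trimmed, whereas those of soleus and psoas 3 were not. A single nuclear gene, Lars2, and the ribosomal RNA gene CT010467.1 together took 10.8% of the counts in soleus 1, 15.4% in psoas 1, and 19.6% in psoas 2, but 0.0144% to 0.0907% in the other 4 libraries. In EDL 1 to 3 their shares were 15.8%, 0.143%, and 0.028%. Calls that did not hold when psoas 1 or psoas 2 was left out are given as such, since these libraries stand apart in both respects.

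Of 16112 genes, 917 were called (5.69%), 481 higher in soleus (2.99%) and 436 lower (2.71%). At an unadjusted p under 0.05 in the same fit, 2438 of the 16112 were higher and 2136 lower, and 8289 had a log2 fold change above 0. The counts at that threshold given below for single lists are to be read beside these. Protein-coding genes made up 781 of the calls, 445 higher and 336 lower. Pseudogenes were mostly lower, with 73 of 79, and the most abundant ones, Gm12671, Gm10359, Gm12070, and Gm13394, are near-identical copies of Gapdh whose reads cannot be assigned with certainty. Among the 4155 genes whose soleus and psoas libraries did not overlap (25.8% of all), 915 were called. DESeq2's Wald test called 1382 genes and limma-voom 818 with the same thresholds. Without psoas 1 the count was 568, without psoas 2 it was 493, without soleus 2 it was 609, and without soleus 4 it was 602.

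**Figure D1:**
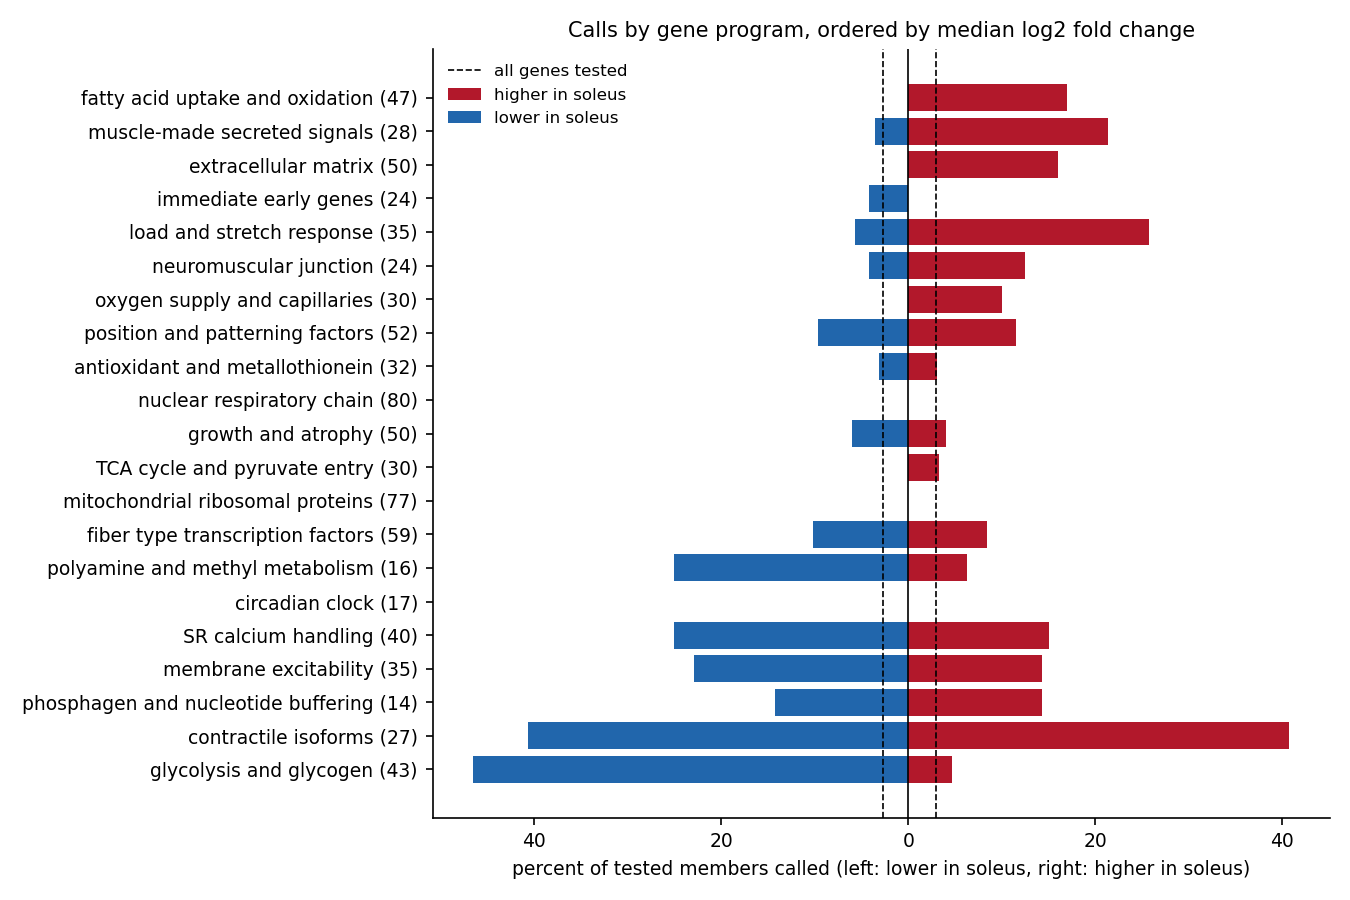
Percent of the tested members of 21 gene programs called higher (red, right) or lower (blue, left) in soleus, with the number tested in parentheses and dashed lines at the shares over all genes. Glycolysis and glycogen holds the most calls of lower genes at 46.5% of members, and the nuclear respiratory chain, the mitochondrial ribosomal proteins, and the circadian clock hold none.

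The contractile genes matched the labels of both muscles. Myh7, the slow myosin heavy chain, was at 6840, 13600, 8180, and 10700 CPM in soleus and at 3.19, 9.95, and 5.24 CPM in psoas. Myh4, the fastest myosin heavy chain, was at 1560, 113, 1690, and 1550 CPM in soleus and at 55000, 56700, and 50100 CPM in psoas. Of 12 slow isoforms 11 were higher, and of 15 fast isoforms 11 were lower. The lower fast isoforms numbered 8 without psoas 1, 9 without psoas 2, and 8 with read trimming as a covariate. The higher slow isoforms numbered 11 without psoas 1 and 10 without psoas 2. The slow troponins Tnni1, Tnnt1, and Tnnc1 and the slow light chain Myl2 rose by 9.27 to 9.8 on the log2 scale, and Actn3 and Mybph, of the fast Z-disc and thick filament, fell by 4.64 and 6.56. Mybpc1, Myh1, Myh2, Tnnt3, and Tnnc2 were not called, and Myh2, the 2A myosin, was at 9490 to 11600 CPM in soleus and 2250 to 6310 CPM in psoas (adjusted p = 0.0226).

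A muscle fiber relaxes when calcium is pumped back into the sarcoplasmic reticulum (SR) by SERCA, and slow fibers use a different pump gene from fast fibers. Small membrane peptides bind the pump. Sarcolipin (Sln), phospholamban (Pln), and myoregulin (Mrln) slow it, while DWORF (Strit1) relieves that brake. Inside the SR calcium is held by calsequestrin, and in the cytosol of fast fibers by parvalbumin. The micropeptide genes Strit1 and Mrln moved in opposite directions here, and the 120 bases before their transcript starts are shown with those of the growth inhibitor myostatin (Mstn) for their position and sequence. The bases are from RefSeq (GRCm38.p6), 5′ to 3′ on the strand of the gene, and the capitals mark a match to 1 of 6 motifs searched.
Strit1, chr3:63483907-63484026, minus strand: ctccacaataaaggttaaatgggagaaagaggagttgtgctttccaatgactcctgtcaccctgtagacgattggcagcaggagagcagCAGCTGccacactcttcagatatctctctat
Mrln, chr10:70204544-70204663, plus strand: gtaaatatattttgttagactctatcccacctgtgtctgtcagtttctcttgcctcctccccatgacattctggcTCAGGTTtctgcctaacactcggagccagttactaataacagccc
Mstn, chr1:53061520-53061639, plus strand: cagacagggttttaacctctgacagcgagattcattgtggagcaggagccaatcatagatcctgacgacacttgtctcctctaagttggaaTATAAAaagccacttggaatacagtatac
The E-box letters CAGCTG began 31 bases before the start of Strit1, the MEF3 letters TCAGGTT 45 bases before that of Mrln, and the TATA letters TATAAA 29 bases before that of Mstn. The motifs searched on both strands of the 250 bases before the start were these, the MCAT letters CATTCC of TEAD factors, the letters TCAAGGTCA read by estrogen-related receptors, and the MEF2 site, and none of the matches shown overlap. Of 10707 promoters of tested genes, 12% held the E-box letters, 2.74% the MEF3 letters, and 6.81% the TATA letters. Among the 342 promoters of genes called higher these shares were 14%, 2.63%, and 9.06%, and among the 265 of genes called lower 15.1%, 5.66%, and 9.06%. Of all promoters, 10.8% held the MCAT letters, 0.224% those of the estrogen-related receptors, and 1.81% the MEF2 site, against 13.7%, 0.585%, and 3.51% of those of higher genes and 10.6%, 0.377%, and 3.02% of those of lower genes.

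The pump genes differed in their balance. Atp2a2 (ENSMUSG00000029467, chromosome 5, 122453513 to 122502225, GRCm38), which encodes the slow and cardiac SERCA, was at 3660, 5470, 6610, and 4760 CPM in soleus and at 22.4, 29.6, and 38.1 CPM in psoas, a log2 fold change of 7.42 ± 0.68 (adjusted p = 9.1e-05). Atp2a1, the fast pump, was at 2010, 1960, 1300, and 1630 CPM in soleus and at 4650, 3480, and 5850 CPM in psoas, and was not called (log2 fold change -1.43 ± 0.36, adjusted p = 0.0208). The groups did not overlap for either gene, which held for 25.8% of all genes. Per length of the summed exons, Atp2a2 reached 830 FPKM ± 210 (SD, n = 4) in soleus beside 487 ± 88.0 for Atp2a1, whereas psoas held 4.94 ± 1.22 (SD, n = 3) of Atp2a2 beside 1340 ± 325 of Atp2a1. The soleus libraries thus carried both pump genes at high levels, and the psoas libraries nearly only the fast one. EDL held Atp2a2 at 17.7, 18.3, and 79.0 CPM, near the psoas level (log2 fold change of psoas over EDL -0.35, adjusted p = 0.708).

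The peptides that bind the pump differed as strongly. Strit1 (Ensembl entry ENSMUSG00000103476, chromosome 3, 63481112 to 63483879) was at 22.3, 31.7, 77.9, and 50.6 CPM in soleus and at 0, 0.127, and 0 CPM in psoas. Since psoas lay below the level that 3 counts give in a library, the difference is stated as at least 215-fold (adjusted p = 0.0001). Sln was at 18.3, 65.1, 30.1, and 83.4 CPM in soleus and at 0.343, 0.19, and 1.13 CPM in psoas (log2 fold change 6.60 ± 0.69, adjusted p = 0.00017). Per length, Strit1 was at 186 FPKM ± 103 in soleus, Sln at 36.5 ± 22.0, and Mrln at 10.9 ± 3.51. Mrln was lower in soleus, at 18, 7.99, 12.5, and 13.7 CPM against 33.7, 53.8, and 32.8 CPM (log2 fold change -1.62 ± 0.26, adjusted p = 0.0021). Pln was not called, and a single library, soleus 3 at 45.4 CPM, lay above the 4.24 to 8.6 CPM of the other soleus libraries and the 2.28 to 2.62 CPM of psoas. In FPKM the highest of these levels in soleus was that of Strit1, the peptide known to release the pump, with Sln and Mrln below it. In CPM the soleus levels of Strit1 and Sln overlapped, so their order rests on the summed exon lengths.

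Stores and buffers also differed by muscle. Casq2, the slow and cardiac calsequestrin, was at 153, 329, 231, and 480 CPM in soleus and at 20.7, 26.4, and 88.5 CPM in psoas (log2 fold change 2.73 ± 0.54, adjusted p = 0.006). Casq1, the fast form, was at 543, 526, 427, and 684 CPM in soleus and at 1630, 1620, and 1990 CPM in psoas (-1.68 ± 0.24, adjusted p = 0.0011). Pvalb, the cytosolic buffer of fast fibers, was at 333, 78.8, 80.8, and 345 CPM in soleus and at 6420, 5800, and 6430 CPM in psoas (-4.89 ± 0.58, adjusted p = 0.00035). For all 3 genes every soleus library lay on the same side of every psoas library. Of 40 tested SR and calcium genes, 6 were higher and 10 lower.

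Calcium-dependent signaling genes were part of this set. Rcan2, which binds and restrains calcineurin, was higher at 146, 124, 161, and 127 CPM against 52.9, 63.6, and 42.4 CPM (log2 fold change 1.39 ± 0.18, adjusted p = 0.00059), and its relative Rcan1 was higher as well (1.47 ± 0.28, adjusted p = 0.0053). Camk2a, a calmodulin-dependent kinase gene, was lower at 11, 10.9, 9.01, and 11 CPM against 103, 53.5, and 48.9 CPM (-2.71 ± 0.24, adjusted p = 8.9e-05). Also lower were Camk2g, the calcineurin subunit Ppp3r1, the SR calcium sensor Stim2, the junctophilins Jph1 and Jph2, which hold the SR to the surface membrane, and Cacng1, a subunit of the voltage sensor. Called without each library in turn were Atp2a2, Strit1, Sln, Rcan2, Pvalb, Casq1, Camk2a, Stim2, and Ppp3r1. Mrln lost its call without psoas 2 (adjusted p = 0.0123), Casq2 without psoas 1, psoas 2, soleus 2, or soleus 4 (up to 0.0315), and Rcan1, Camk2g, Jph1, Jph2, and Cacng1 without 4 or more of the libraries in turn (up to 0.0321), so that the lower genes numbered 5 without psoas 2 and 6 without psoas 1 or without soleus 4.

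**Figure D2:**
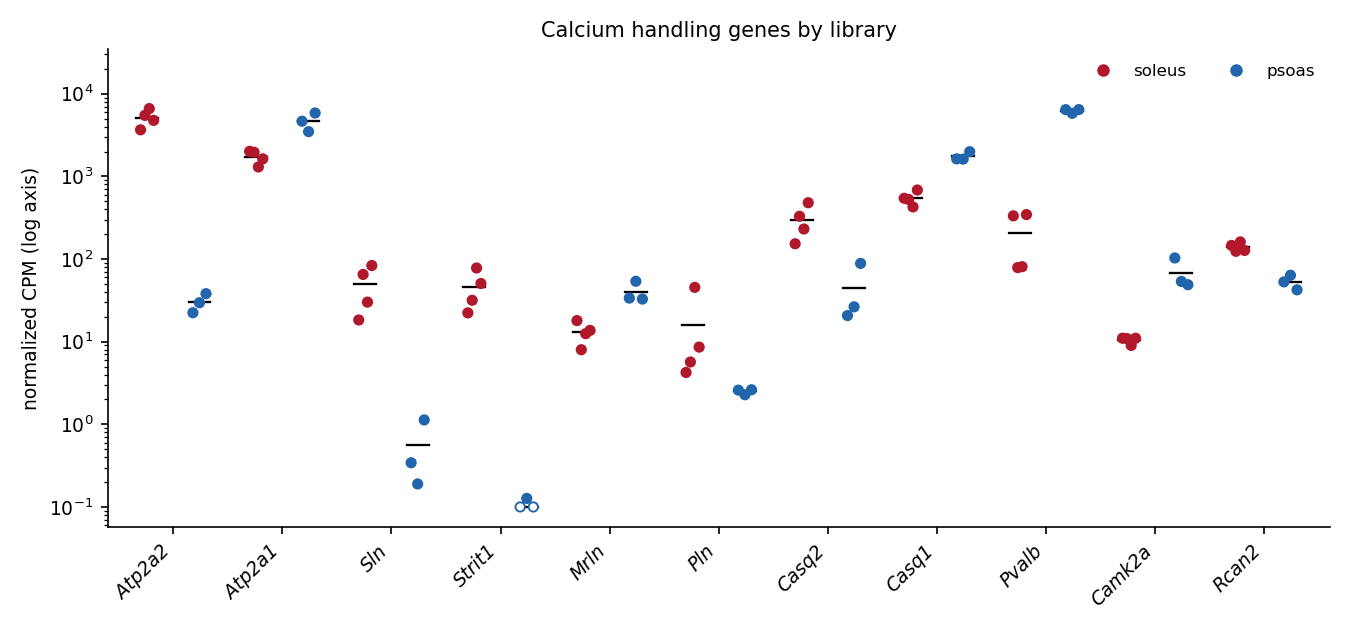
Normalized CPM (log axis) of 11 calcium handling genes, 1 point per library and a bar at the group mean, soleus in red and psoas in blue; open points lie at or below 0.1 CPM. Soleus and psoas do not overlap for any gene shown, including Atp2a1 and Pln, which were not called. The same held for 25.8% of all genes and for 915 of the 917 called.

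Fast fibers draw on glycogen and glycolysis for short efforts, and slow fibers on fat and oxygen for long ones. Among the 43 tested genes of glycolysis and glycogen, 20 were lower in soleus and 2 higher, with a median log2 fold change of -1.34 beside 0.02 over all genes. The lower genes lay between glycogen breakdown and lactate export. They were 7 of 15 glycogen genes, 9 of 19 of glycolysis, and 4 of 6 of lactate and the glycerol phosphate shuttle. None of 3 glucose uptake genes was called, nor were Hk1, Hk2, Gpi1, and Pfkm of the first steps of glycolysis. Over the alternatives that kept both thresholds of the call, the count of lower genes was between 14 and 23, with 14 under a replicate block and 22 in the untrimmed libraries of 44-day mice alone. The latter set holds psoas 3 as its only psoas library, so its spread rests on soleus 2 and soleus 4, which may be of the same mouse. All libraries of that set are labelled female, and all trimmed libraries male. That set and the trimming covariate therefore also change the sex compared, and their counts are given with these limits.

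The widest differences in this list were at the glycerol phosphate shuttle, which carries electrons from cytosolic NADH to the respiratory chain. Gpd2, its mitochondrial enzyme, was at 25.3, 15.6, 16.4, and 20.3 CPM in soleus and at 172, 206, and 283 CPM in psoas (log2 fold change -3.51 ± 0.30, adjusted p = 6.9e-05). Gpd1, its cytosolic enzyme, was at 43.6, 26.2, 15.9, and 30.2 CPM in soleus and at 308, 200, and 248 CPM in psoas (-3.12 ± 0.31, adjusted p = 0.00014). The lowest psoas library held more than the highest soleus library by severalfold for both. Next among the lower genes came Slc16a3, which exports lactate, at 35, 11.7, 15, and 13.8 CPM against 162, 134, and 104 CPM (-2.83 ± 0.35, adjusted p = 0.00042).

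Regulators of the path were lower together with its enzymes. The 3 muscle subunits of phosphorylase kinase, the enzyme that switches glycogen breakdown on, were lower by 2.46 ± 0.21 (Phka1), 2.39 ± 0.24 (Phkg1), and 1.99 ± 0.25 (Phkb) on the log2 scale. Pfkfb3 and Pfkfb4, which make the activator of phosphofructokinase, fell by 2.58 ± 0.32 and 1.88 ± 0.19. Phosphorylase itself (Pygm) was lower by a log2 fold change of -1.74 ± 0.28, from 3030 to 3960 CPM in psoas and 939 to 1290 CPM in soleus. Phosphoglucomutase Pgm1 was also lower (-2.18 ± 0.24). Ppp1r3a, which brings a phosphatase to glycogen, and the enzymes Tpi1, Pgk1, Pgam2, and Pkm of lower glycolysis were lower by -1.34 to -1.54.

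The core enzymes were among the most abundant transcripts that differed. Aldoa, aldolase, was at 4700, 2600, 3770, and 3120 CPM in soleus and at 12700, 12500, and 13600 CPM in psoas (log2 fold change -1.87 ± 0.32, adjusted p = 0.0028). Eno3, the muscle enolase, was at 2280, 1220, 1970, and 1370 CPM against 4780, 5480, and 6390 CPM (-1.70 ± 0.30, adjusted p = 0.0031). Gapdh, often taken as a constant reference, was at 1540, 981, 1090, and 1180 CPM against 4370, 2720, and 3620 CPM (-1.57 ± 0.27, adjusted p = 0.0027). The calls of Aldoa, Eno3, and Gapdh were each lost without soleus 2 or without soleus 4, those of Aldoa and Eno3 also without psoas 2, that of Eno3 without psoas 3, and that of Gapdh without psoas 1 (adjusted p up to 0.0144), and that of Pygm without soleus 4 (0.0102).

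Lactate dehydrogenase switched subunits. Ldhb, the heart form, was at 836, 751, 992, and 869 CPM in soleus and at 54.1, 87.9, and 198 CPM in psoas (log2 fold change 2.93 ± 0.39, adjusted p = 0.00069). Ldha, the muscle form, was at 237, 189, 145, and 196 CPM in soleus and at 802, 690, and 696 CPM in psoas (-1.93 ± 0.23, adjusted p = 0.00035). In FPKM, soleus held 541 ± 73.2 of Ldhb beside 56.9 ± 11.0 of Ldha, and psoas 71.9 ± 46.7 beside 221 ± 20.9. The order of both subunits was reversed between the muscles in these levels. Pfkp was the other higher gene of the list, at 5.8 to 7.53 CPM against 3.23 to 3.35 CPM, and its call was lost in each fit without a library other than EDL 3 (adjusted p up to 0.0386).

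Genes of the high-energy phosphate store were called in both directions. Ckm, muscle creatine kinase, was at 5390, 3600, 4110, and 3920 CPM in soleus and at 14000, 11600, and 13100 CPM in psoas (log2 fold change -1.60 ± 0.27, adjusted p = 0.0025). Ampd1, the AMP deaminase of fast fibers, was at 230, 197, 247, and 261 CPM against 470, 629, and 938 CPM (-1.54 ± 0.23, adjusted p = 0.0013). Ckb, the brain creatine kinase, and Ampd3 were higher at low levels, Ckb at 6.7 to 12.9 CPM against 2.35 to 2.79 CPM (1.78 ± 0.26, adjusted p = 0.0011). Of 14 genes tested, 2 were higher and 2 lower. The call of Ckm was lost without psoas 1 or without soleus 4 (adjusted p up to 0.0131), and that of Ampd3 without any of psoas 1 to 3 and soleus 2 to 4 (up to 0.0328).

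Few genes of fat use were called, all of them higher. Of 47 tested genes of fatty acid uptake and oxidation, 8 were higher, none was lower, and 44 had a fold change above 0, with a median log2 fold change of 0.80. At an unadjusted p under 0.05, 30 were higher and 1 lower, beside 2438 and 2136 of all 16112 genes. Lpl, the lipase that frees fatty acids in the capillaries, was at 1600, 1640, 1660, and 1680 CPM in soleus and at 429, 454, and 532 CPM in psoas (1.80 ± 0.18, adjusted p = 0.00014). Dgat2, which completes triglyceride synthesis, was at 132, 73.6, 54.5, and 74.5 CPM against 17.4, 16, and 26.1 CPM (2.08 ± 0.31, adjusted p = 0.0012). Cd36, a fatty acid transporter, was at 903, 602, 1120, and 815 CPM against 231, 354, and 336 CPM (1.49 ± 0.27, adjusted p = 0.0037). The thioesterases Acot1 and Acot2, the dehydrogenase Acadm, and the lipases Mgll and Lipe were the other higher genes, and Acot1 and Acot2 are close paralogs whose reads may be split. Lpl, Dgat2, and Acot1 were called without each library in turn. The count of higher genes was 3 without psoas 1, 4 without psoas 2, and 5 without soleus 3, and it was 4 in the untrimmed 44-day libraries, where the median was 0.43. The 9 adipocyte markers moved the same way, all 9 above 0 with a median log2 fold change of 1.70, 6 higher at an unadjusted p under 0.05, 1 called, and 4 called in the 44-day libraries. Adipoq, the fat cell hormone adiponectin, was at 16.6, 11.2, 25.7, and 6.33 CPM in soleus and at 8.42, 3.04, and 1.06 CPM in psoas, where the groups overlapped. The part of fat cells in these values was not tested.

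The nuclear respiratory chain and the mitochondrial ribosomal proteins held no calls by edgeR. Of 80 tested nuclear genes of the respiratory chain none was called by edgeR, DESeq2, or limma-voom, and at an unadjusted p under 0.05 there were 9 higher and 2 lower. Their median log2 fold change was 0.13, and 59 of the 80 lay above 0, beside 8289 of all 16112 genes. Of 77 mitochondrial ribosomal protein genes none was called by edgeR or limma-voom and 1 by DESeq2, with 2 higher and 3 lower at an unadjusted p under 0.05 and a median of 0.00. Ppargc1a, the coactivator that drives mitochondrial gene expression, was at 26.5 to 31.3 CPM in soleus and 28.3 to 39.9 CPM in psoas (-0.25 ± 0.15, adjusted p = 0.307), where the groups overlapped.

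Single mitochondrial genes were called outside these lists. Idh2, the NADP-linked isocitrate dehydrogenase, was the only gene called of 30 in the citric acid cycle list (3.33%). It was at 928, 1620, 1690, and 1750 CPM in soleus and at 49.3, 124, and 266 CPM in psoas (log2 fold change 3.35 ± 0.53, adjusted p = 0.0019), and lost its call without psoas 2 (0.013), where another gene of the list was lower. Bdh1, which interconverts ketone bodies and was chosen after its values were seen, was at 219, 91.1, 277, and 126 CPM against 9, 14.3, and 4.74 CPM (4.25 ± 0.49, adjusted p = 0.00032). Oxct1, the next enzyme of ketone use, was at 721 to 881 CPM against 339 to 567 CPM and was not called (0.69 ± 0.21, adjusted p = 0.0539). Coq8a, needed for coenzyme Q synthesis, was at 1160 to 1790 CPM in soleus and 275 to 729 CPM in psoas (adjusted p = 0.0076), and its call was lost without EDL 1, EDL 2, psoas 1, psoas 2, soleus 2, soleus 3, or soleus 4 (up to 0.028).

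**Figure D3:**
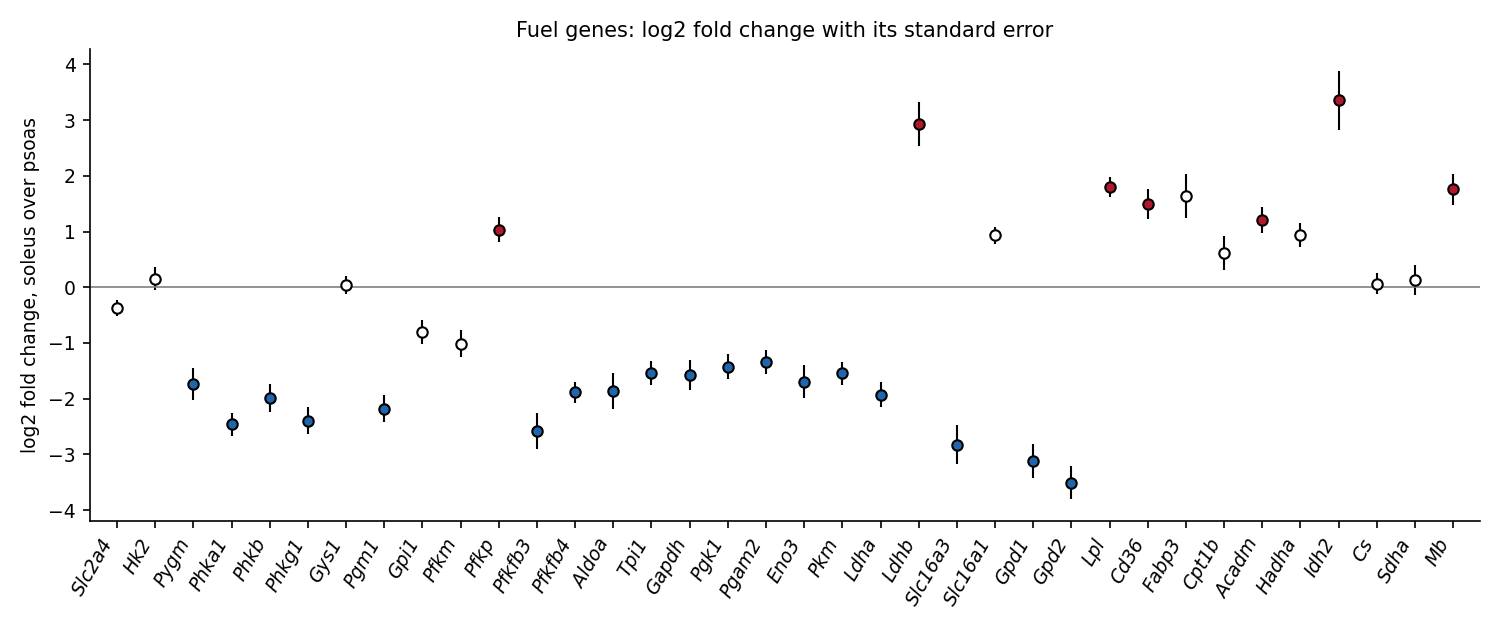
Log2 fold change (soleus over psoas) of 36 fuel genes with the standard error of the fit as bars, ordered from glucose uptake and glycogen to lactate, then fat and mitochondria; filled points were called. The glycogen and glycolysis genes lie mostly below 0, with Ldhb at 2.93 and Pfkp as filled exceptions, and the citrate cycle genes Cs and Sdha lie close to 0.

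Of 30 genes of oxygen supply 3 were called, all higher. Mb, the oxygen store myoglobin, was at 6980, 5350, 7340, and 5740 CPM in soleus and at 1310, 2010, and 2320 CPM in psoas (log2 fold change 1.76 ± 0.28, adjusted p = 0.0018). Fgf1, an angiogenic growth factor, was at 45.1, 45.6, 64.8, and 44.9 CPM against 11.5, 12.2, and 18 CPM (1.85 ± 0.21, adjusted p = 0.00024), and Egln3, an oxygen-sensing hydroxylase, was higher by 2.14 ± 0.40 (adjusted p = 0.0047). Mb was not called with read trimming as a covariate (adjusted p = 0.0129) or in the untrimmed 44-day libraries (0.0261), and with trimming the list held 1 call. The 10 endothelial markers held none by edgeR, DESeq2, or limma-voom, with 3 higher and none lower at an unadjusted p under 0.05, and summed to 192 to 231 CPM in soleus and 157 to 180 CPM in psoas. Egln3 lost its call without psoas 2, soleus 2, or soleus 4 (up to 0.0218), and without soleus 1 the calls numbered 5.

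Fiber identity is set by transcription factors that hold fast or slow genes on. Of 59 tested, 5 were higher and 6 lower. Of 12 listed for the slow program Prox1 alone was called, and their median log2 fold change was -0.07. Of 17 listed for the fast program 4 were lower and 1, Esrrb, was higher. Maf, of a family that drives the fastest myosin, was at 7.39, 4.61, 5.1, and 6.65 CPM in soleus and at 47.3, 37.5, and 28 CPM in psoas (log2 fold change -2.67 ± 0.22, adjusted p = 6.5e-05). Its relative Mafa was at 0.319 to 0.958 CPM against 3.47 to 8.15 CPM (-3.26 ± 0.42, adjusted p = 0.00051). Sox6, a repressor of slow genes, was at 28.7, 28.6, 23.6, and 24.8 CPM against 88.3, 73.3, and 67.1 CPM (-1.53 ± 0.16, adjusted p = 0.00016). Eya4, a cofactor of homeobox factors, was lower by 2.54 ± 0.38, and Prkag3 and Prkag2, regulatory subunits of the energy sensor AMPK, by 2.32 ± 0.35 and 1.47 ± 0.23. All 6 were called without each library in turn.

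Among the higher genes, Prox1, which supports slow fiber genes, was at 5.68, 11.4, 7.97, and 10.7 CPM in soleus and at 1.48, 0.761, and 1.2 CPM in psoas (log2 fold change 2.93 ± 0.38, adjusted p = 0.00058). The orphan receptor Esrrg, which acts on oxidative genes, was at 31.4, 32.8, 25.8, and 26.1 CPM against 7.55, 6.28, and 6.8 CPM (2.07 ± 0.19, adjusted p = 9e-05), and Esrrb was at 4.72 to 7.36 CPM against 0.581 to 1.35 CPM (2.71 ± 0.34, adjusted p = 0.00044). Hdac9 and Id3 were also higher, by 1.69 ± 0.26 and 1.5 ± 0.27. Esrrg lay at 1.8 to 2.79 CPM in EDL, below psoas (log2 fold change of psoas over EDL 1.52, adjusted p = 0.0023), so that its order was soleus, psoas, EDL. Id3 lost its call without any one of psoas 1 to 3 (adjusted p up to 0.0229).

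Hox genes record the position of cells along the trunk and limb, and muscles keep part of that record into adult life. Hoxa13, which marks the far end of the limb, was at 1.44, 1.67, 3.99, and 0.95 CPM in soleus and at 0 counts in all psoas libraries, at least 9.47-fold higher (adjusted p = 0.00084). Hoxa11 was at 1.3, 0.927, 1.36, and 0.633 CPM in soleus and at 0 counts in psoas, at least 4.96-fold higher (adjusted p = 0.00049). EDL held both genes, at 3.04 to 4.2 CPM and 2.29 to 4.06 CPM, and differed from psoas (adjusted p = 0.0015 and 0.00083) but was not called against soleus (0.153 and 0.0169). Both lie on chromosome 6, Hoxa13 at 52257694 to 52260880 and Hoxa11 at 52242106 to 52245810. Hoxa10, their neighbor, was at 5.06 to 7.66 CPM in soleus and 5.77 to 6.17 CPM in psoas, where the groups overlapped (0.17 ± 0.20, adjusted p = 0.636).

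Of 19 Hox genes tested, 3 were higher, 2 lower, and 14 not called, with a median log2 fold change of -0.01. Hoxc11 was higher in soleus, at 1.98, 2.33, 1.91, and 1.95 CPM against 0.343, 0.761, and 0.0708 CPM (log2 fold change 2.38 ± 0.47, adjusted p = 0.0061). Hoxc8 was lower, at 0.479, 0.538, 0.239, and 0.211 CPM against 2.37, 1.46, and 1.91 CPM (-2.33 ± 0.42, adjusted p = 0.0035), and Hoxc6 was lower at 0.159 to 1.17 CPM against 2.41 to 4.38 CPM (-2.11 ± 0.43, adjusted p = 0.007). No Hox gene was called lower without psoas 1, without soleus 4, or in the 44-day libraries. The limb genes Tbx4 (0.797 to 1.62 against 0.422 to 0.779 CPM, adjusted p = 0.0893) and Pitx1 (0 to 0.209 against 0.425 to 1.08 CPM, adjusted p = 0.0254) were not called.

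Other patterning factors completed the list, with 6 higher and 5 lower of 52 tested. Barx2, a homeobox gene of myoblasts, was at 22.4, 27.8, 17.4, and 23.9 CPM in soleus and at 4.67, 6.91, and 5.81 CPM in psoas (log2 fold change 1.99 ± 0.22, adjusted p = 0.00024). The related factors Sim2 and Sim1 differed in opposite directions, Sim2 higher at 3.51 to 6.94 CPM against 0.507 to 1.27 CPM (adjusted p = 0.0025) and Sim1 lower at 6.73 to 11.1 CPM against 19.2 to 32.2 CPM (adjusted p = 0.0014). EDL held Sim2 at 0 to 0.0234 CPM. Irx5 and Six2 were lower, both under 1.5 CPM in every library, and Prrx1 higher by 1.05 ± 0.21. Hoxa13, Hoxa11, Barx2, and Sim1 were called without each library in turn. Hoxc11, Hoxc6, Irx5, and Prrx1 lost their calls without 6 or more of the libraries in turn (adjusted p up to 0.0413), Hoxc8 without psoas 1 or soleus 4 (0.0206), Sim2 without psoas 1 or psoas 2 (0.0133), and Six2 without psoas 2, soleus 2, or soleus 4 (0.0138), and in the untrimmed 44-day libraries 4 genes were higher and none lower.

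**Figure D4:**
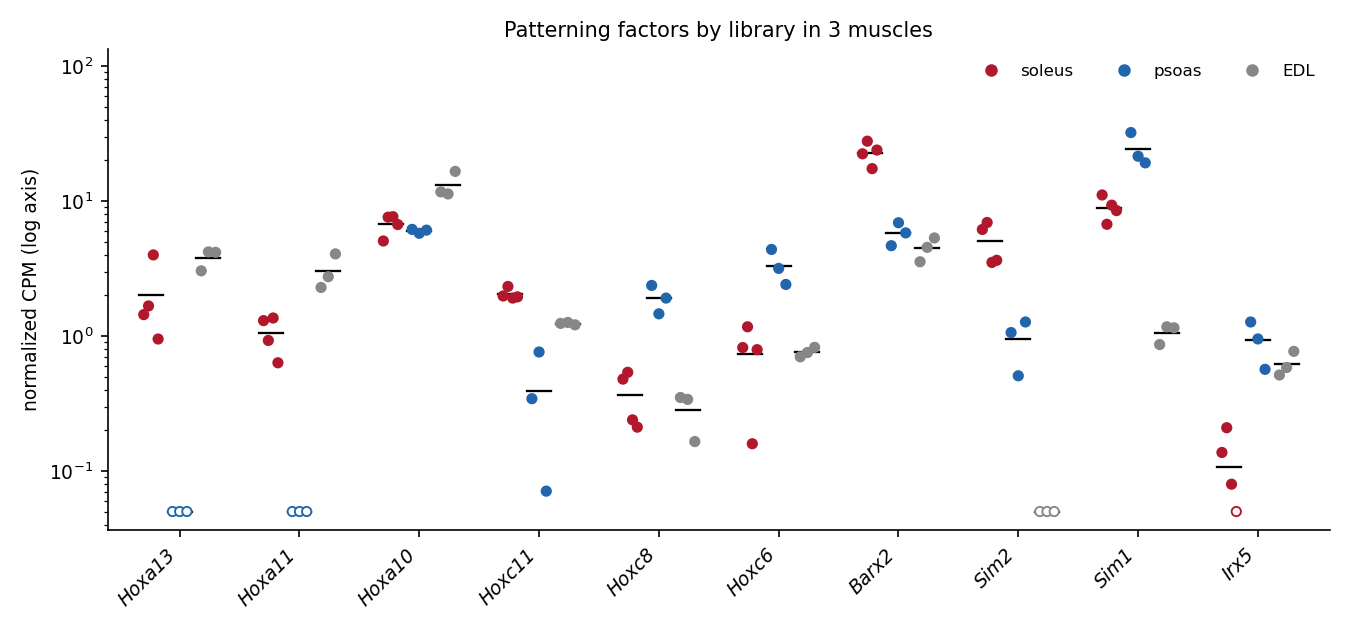
Normalized CPM (log axis) of 10 patterning factors by library, soleus in red, psoas in blue, and EDL in gray, with a bar at each group mean and open points at or below 0.05 CPM. Hoxa13 and Hoxa11 are open in all 3 psoas libraries and filled in every soleus and EDL library, while Hoxa10 is at similar levels in soleus and psoas.

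Fibers that bear load carry proteins that sense strain at the Z-disc and chaperones that protect the filaments. Of 35 tested genes of load and stretch, 9 were higher in soleus and 2 lower. Fhl2, a LIM protein of the sarcomere, was at 28.2, 25.3, 24.6, and 37.1 CPM in soleus and at 0.818, 0.951, and 1.27 CPM in psoas (log2 fold change 4.86 ± 0.37, adjusted p = 5e-05). Pdlim1 was at 137, 160, 167, and 179 CPM against 11.6, 15.2, and 23.1 CPM (3.28 ± 0.32, adjusted p = 0.00014). Hspb7, a small heat shock protein, was at 120, 121, 165, and 157 CPM against 13.1, 11.3, and 26.8 CPM (3.05 ± 0.36, adjusted p = 0.00033). These 3 genes were called without each library in turn, and EDL held them at or below the psoas range but for Pdlim1 at 8.51 to 18.5 CPM.

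The ankyrin repeat proteins, which bind titin and are induced by stretch, were higher as well. Ankrd2 was at 249, 106, 354, and 230 CPM in soleus and at 18.6, 30.5, and 31.2 CPM in psoas (log2 fold change 3.14 ± 0.50, adjusted p = 0.0019). Ankrd1 was at 8.28, 7.03, 35.6, and 12.5 CPM against 1.27, 1.52, and 0.637 CPM (3.75 ± 0.59, adjusted p = 0.0018), and EDL, at 40.3 to 54.3 CPM, held more of it than soleus. Lmod2, Xirp1, Cryab, and Hspb2 were higher by 1.89, 1.27, 1.24, and 1.03. Ky, a Z-disc protein, was lower at 27.1, 35.1, 20.5, and 26.4 CPM against 160, 115, and 117 CPM (-2.26 ± 0.31, adjusted p = 0.0008), as was Pdlim7 (-1.32 ± 0.17). The higher genes numbered 3 without psoas 2, 5 without psoas 1, and 5 without soleus 4. Ankrd1 and Ankrd2 lost their calls without psoas 1 or psoas 2 (adjusted p up to 0.0125), Lmod2 also without soleus 4 (0.0127), and Xirp1, Cryab, and Hspb2 without 5 or more of the libraries in turn (0.0384).

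Growth control differed most in myostatin, a secreted inhibitor of muscle size. Mstn (chromosome 1, 53061640 to 53068079) was at 4.04, 0.299, 2.79, and 2.22 CPM in soleus and at 145, 64.3, and 67.5 CPM in psoas (log2 fold change -5.38 ± 0.61, adjusted p = 0.00027). Acvr1b, a receptor of the same pathway, was lower at 7.18 to 10.2 CPM against 24.3 to 32.6 CPM (-1.70 ± 0.25, adjusted p = 0.0012), and Fst, which encodes the myostatin-binding protein follistatin, was higher at 5.13, 6.43, 12.4, and 4.49 CPM against 0.765, 1.27, and 1.49 CPM (2.63 ± 0.41, adjusted p = 0.0017). Of 18 genes of activin and myostatin signaling these were the 3 called, 15 were not, and with read trimming as a covariate none was higher. Of 50 growth and atrophy genes 2 were higher (4%) and 3 lower (6%), beside 2.99% and 2.71% over all genes. Gadd45a and Grb14 were the others (-1.93 ± 0.26 and 1.26 ± 0.23). Fst lost its call without psoas 1 (adjusted p = 0.0116) and Grb14 without psoas 1, psoas 2, psoas 3, or soleus 1 (up to 0.0248), so that no higher gene was left without psoas 1, and without soleus 3 there were 4.

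Genes that muscle fibers secrete were more often higher, with 6 higher and 1 lower of 28. Ostn, musclin, which acts on natriuretic peptide clearance, was at 9.44, 24.2, 60.2, and 25.5 CPM in soleus and at 1.95, 1.71, and 0.921 CPM in psoas (log2 fold change 4.23 ± 0.57, adjusted p = 0.00075). Fndc5, the precursor of irisin, was at 220, 188, 183, and 158 CPM against 54.4, 59.9, and 82.1 CPM (1.52 ± 0.21, adjusted p = 0.00096). The neurotrophin Bdnf was higher at 1.52 to 4.33 CPM against 0.317 to 0.85 CPM (2.55 ± 0.47, adjusted p = 0.0044), while Ntf5, which binds the same receptor, was lower at 1.11 to 1.67 CPM against 3.26 to 3.87 CPM (-1.40 ± 0.26, adjusted p = 0.0043). Nrn1, Cilp, and Metrnl were higher by 3.07, 2.60, and 1.79. Bdnf lost its call without psoas 1, psoas 2, soleus 2, or soleus 4 (adjusted p up to 0.0267), and Ntf5 without psoas 1, psoas 2, soleus 1, soleus 3, or soleus 4 (up to 0.0215).

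At the surface membrane, genes of the sodium pump differed in both directions. Atp1b2, a beta subunit of fast fibers, was at 1.44, 1.41, 1.12, and 1.64 CPM in soleus and at 16.8, 12, and 12.2 CPM in psoas (log2 fold change -3.28 ± 0.27, adjusted p = 6.5e-05). Per length, the beta subunit gene Atp1b1 lay above Atp1b2 in both muscles, at 25.9 to 37.6 FPKM in soleus and 18.9 to 20.4 FPKM in psoas. Fxyd6, a small regulator of the pump, was at 37.6, 54.1, 79.8, and 38.9 CPM against 3.69, 11.1, and 12.6 CPM (2.55 ± 0.41, adjusted p = 0.0021).

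Of 17 potassium channel genes, 2 were higher, 4 lower, and 11 not called. Kcnc1 and Kcnc4, subunits of fast delayed rectifiers, were lower by -1.75 ± 0.27 and -2.68 ± 0.43 on the log2 scale, and the inward rectifier Kcnj12 by -1.58 ± 0.20. The calcium-activated channels Kcnn3 and Kcnma1 were higher (2.25 ± 0.48 and 1.1 ± 0.19). Neither was called without psoas 2, without psoas 3, or with read trimming as a covariate. Without psoas 1 the potassium channel genes held 1 higher call. Slc8a1, the sodium-calcium exchanger, was lower at 3.54 to 4.55 CPM against 9.91 to 13 CPM (-1.55 ± 0.21, adjusted p = 0.00084). Of 35 excitability genes, 5 were higher and 8 lower, with Atp1b4 (higher), Ano5, Kcnab1, and Atp2b3 also among the calls. Called without each library in turn were Atp1b2, Fxyd6, Kcnj12, Kcnc1, Kcnc4, and Slc8a1. The higher genes numbered 2 without psoas 2 or psoas 3, and 3 without psoas 1, soleus 2, soleus 3, or soleus 4, and the lower genes 5 without psoas 3, soleus 3, or soleus 4.

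At the neuromuscular junction, where nerve meets fiber, 3 of 24 genes were higher and 1 lower. Chrna1, the alpha subunit of the acetylcholine receptor, was at 32.5, 26, 27.5, and 27.3 CPM in soleus and at 12.2, 5.07, and 8.57 CPM in psoas (log2 fold change 1.70 ± 0.27, adjusted p = 0.0019). Chrnd, its delta subunit, and the adhesion molecule Ncam1 were also higher (1.98 ± 0.42 and 1.85 ± 0.32). Ache, which breaks down the transmitter, was lower at 1.23 to 1.62 CPM against 3.26 to 5.36 CPM (-1.52 ± 0.25, adjusted p = 0.0021). Chrnd was at or under 2.27 CPM throughout and lost its call without any library but soleus 1 (adjusted p up to 0.0404), and Ncam1 without soleus 2 or soleus 4 (up to 0.0112). The 10 Schwann cell markers, which would mark nerve in the tissue, held no call by edgeR, DESeq2, or limma-voom (none higher and 2 lower at an unadjusted p under 0.05) and summed to 34.6 to 48.6 CPM in soleus and 23.8 to 99.8 CPM in psoas. Without psoas 2 there were 2 lower Schwann cell markers.

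Tendon markers were higher in soleus, with a wide spread between libraries. Of 12 tendon markers 8 were higher in soleus and none lower, with a median log2 fold change of 3.20. Tnmd, tenomodulin, was at 41.7, 84.8, 10.4, and 49.1 CPM in soleus and at 1.42, 5.96, and 4.18 CPM in psoas (3.64 ± 0.66, adjusted p = 0.0038). Comp, a matrix protein of tendon and cartilage, was at 21.6, 41, 27.7, and 18.4 CPM against 0.449, 1.46, and 2.2 CPM (4.44 ± 0.48, adjusted p = 0.00022). The whole list summed to 328, 647, 138, and 376 CPM in soleus and to 85.5, 114, and 84.4 CPM in psoas, and no defining marker was at 0 in either muscle. EDL summed to 919 to 953 CPM, more than soleus.

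Of 50 matrix genes tested, 8 were higher and none lower. The list summed to 2707, 3760, 1291, and 3040 CPM in soleus and to 2432, 1570, and 1777 CPM in psoas, so that soleus 3 lay below every psoas library and the groups overlapped. Col12a1 and Col22a1, collagens of the muscle-tendon junction, were at 29.8, 63.9, 10, and 45.6 CPM and at 28.8, 66.5, 8.69, and 37.4 CPM in soleus, against 4.82 to 6.94 CPM and 4.62 to 7.01 CPM in psoas (adjusted p = 0.0046 and 0.0067). Soleus 3, from the youngest mouse, was lowest and soleus 2 highest for both collagens and for Tnmd. Timp1, Mfap4, Ctgf, Col8a1, Fbln1, and Aspn were the other higher genes, by 1.53 to 4.05 on the log2 scale. The 12 fibroblast markers held no call by edgeR or limma-voom and 1 by DESeq2 (4 higher and 1 lower at an unadjusted p under 0.05) and summed to 1114 to 1535 CPM in soleus and 725 to 1081 CPM in psoas. The part of attached tendon in the matrix and tendon values was not tested.

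These 2 lists also depended most on the libraries compared. Matrix genes called numbered 16 in the untrimmed 44-day libraries and with limma-voom 1, none without psoas 2, 1 without psoas 1, psoas 3, soleus 2, or soleus 4, and 4 without soleus 1. Tendon markers called numbered 11 in the 44-day libraries, 2 with read trimming as a covariate, 4 with limma-voom, 2 without psoas 1, 4 without psoas 3, and 5 without psoas 2 or without soleus 4. Only Comp and Chad of the 8 tendon markers were called without each library in turn, and Tnmd, Scx, Mkx, Fmod, Cilp2, and Col11a1 were not (adjusted p up to 0.0285).

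Of 16 polyamine and methyl genes 4 were lower and 1 higher, with a median log2 fold change of -0.06. Smox, spermine oxidase, was at 17.4, 6.76, 10.1, and 8.13 CPM in soleus and at 615, 245, and 50 CPM in psoas (log2 fold change -4.85 ± 0.68, adjusted p = 0.00092). Amd1, which makes the aminopropyl donor of the polyamines, was at 195, 76.6, 155, and 84.2 CPM against 2450, 1960, and 283 CPM (-3.61 ± 0.60, adjusted p = 0.0025), and its near copy Amd2, whose reads cannot be told apart with certainty, followed it. Sms, spermine synthase, was at 43.5, 33.7, 33.5, and 35.6 CPM against 118, 110, and 86.6 CPM (-1.52 ± 0.19, adjusted p = 0.00049), and Paox was higher (1.51 ± 0.23). Psoas 1 and 2, the trimmed libraries, lay far above psoas 3 for Smox and Amd1, though psoas 3 was still above every soleus library. Psoas 1 and 2 are also labelled male and psoas 3 female, so trimming and sex cannot be told apart within psoas. The log2 fold changes in the untrimmed 44-day libraries were -2.73 for Smox and -1.79 for Amd1, from psoas 3 as the only psoas library. With trimming as a covariate 1 was lower, and Amd1 and Amd2 lost their calls without psoas 1, psoas 2, soleus 2, or soleus 4 (adjusted p up to 0.012), leaving 2 lower genes, while without psoas 3 there were 2 higher genes.

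**Figure D5:**
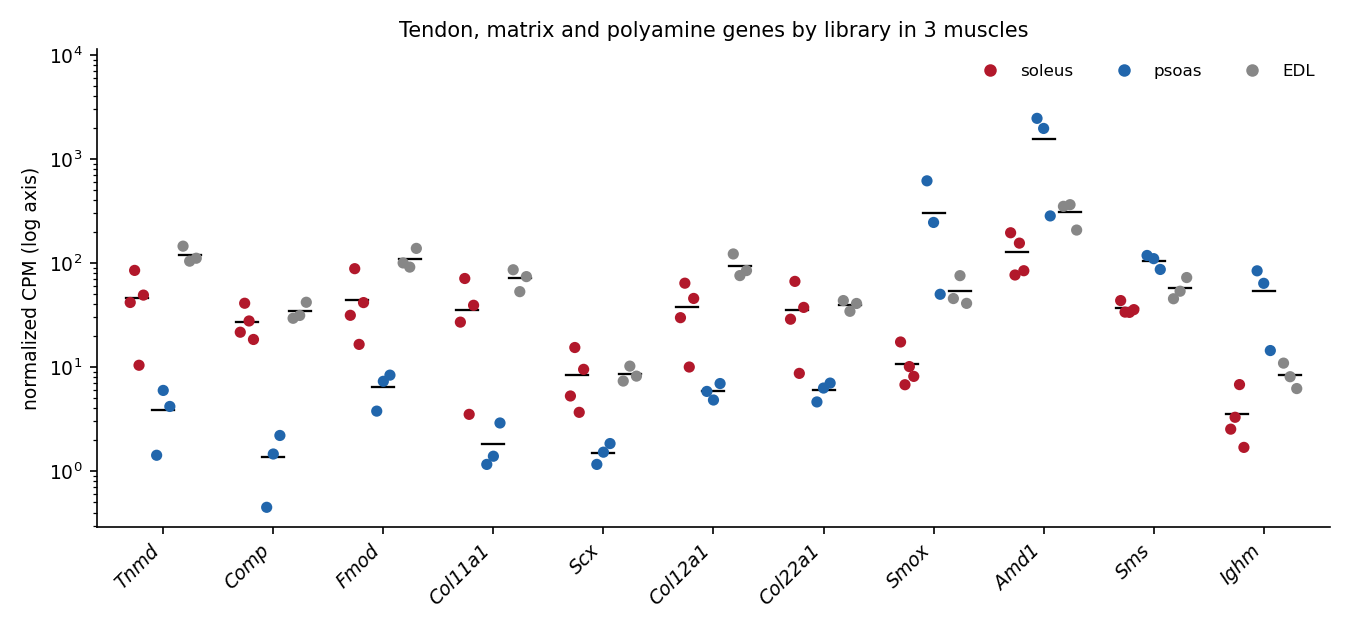
Normalized CPM (log axis) of tendon, matrix, and polyamine genes and of Ighm by library in soleus (red), psoas (blue), and EDL (gray), with a bar at each group mean. The EDL mean lies above the soleus mean for the tendon and matrix genes, soleus 3 is the lowest soleus library for all of them but Comp, and psoas 1 and 2 lie above psoas 3 for Smox, Amd1, and Ighm.

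The remaining programs held few calls, with 1 of 24 immediate early genes lower (4.17%) and 1 of 32 antioxidant genes in each direction (3.12%). Over all genes 2.99% were higher and 2.71% lower. The 17 clock genes held none by edgeR, DESeq2, or limma-voom, with 1 higher and 2 lower at an unadjusted p under 0.05. Of 24 immediate early genes Nr4a1 alone was called, lower at 9.17, 4.52, 4.47, and 5.44 CPM against 43.6, 29.6, and 24.1 CPM (log2 fold change -2.47 ± 0.34, adjusted p = 0.00084), and 2 more were higher without EDL 3. Of 32 antioxidant genes, catalase (Cat) was higher at 176 to 266 CPM against 72.3 to 113 CPM (adjusted p = 0.0021) and Gclm lower (adjusted p = 0.0078). Cat lost its call without psoas 1 or psoas 2 (up to 0.0138), and Gclm without each library but EDL 1 and EDL 3 (up to 0.0331), while without soleus 1 there were 2 higher genes.

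Markers of other cells gave single calls. Ighm, the heavy chain of immunoglobulin M, was at 2.53, 3.29, 6.78, and 1.69 CPM in soleus and at 84, 63.7, and 14.4 CPM in psoas (log2 fold change -3.95 ± 0.57, adjusted p = 0.001), and only 3 of the 11 lymphocyte markers were measured. Cidea, a lipid droplet gene of fat cells, was higher (3.13 ± 0.48, adjusted p = 0.0015; 0.0116 without psoas 2), and the 9 adipocyte markers, which include Car3, a gene of the oxygen supply list as well, summed to 1290 to 4667 CPM in soleus and 1071 to 4454 CPM in psoas. Sdc4 was the single call among 8 satellite cell markers, which summed to 101 to 104 CPM in soleus and 40.8 to 47.6 CPM in psoas. All 8 had a fold change above 0, with a median log2 fold change of 0.79. At an unadjusted p under 0.05, 4 of them were higher and none lower. Col9a1 was lower, at 0 to 0.0684 CPM against 1.06 to 1.45 CPM, at least 5.27-fold (adjusted p = 0.00016), as 1 of 5 measured cartilage markers. None of the erythroid, macrophage, or smooth muscle markers was called by edgeR, DESeq2, or limma-voom, and at an unadjusted p under 0.05 there were 6 lower erythroid, no macrophage, and 3 higher smooth muscle markers. The erythroid markers summed to 3.54 to 25.8 CPM in soleus and 16.8 to 137 CPM in psoas.

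Outside these programs, the largest rises were in genes of varied function. Tecrl, a reductase linked to heart rhythm, was at 3.63, 4.19, 8.53, and 15.3 CPM in soleus and at 0 counts in psoas, at least 37.3-fold higher (adjusted p = 0.00049). Aldh1b1, a mitochondrial aldehyde dehydrogenase, was at 2.33 to 3.08 CPM against 0 to 0.142 CPM, at least 12.9-fold higher. Rrad, a small GTPase that restrains calcium channels, was at 9.31, 12.8, 32.2, and 8.18 CPM against 0.422, 0.444, and 0.354 CPM (log2 fold change 5.23 ± 0.55), Rp1 at 7.78 to 15.6 CPM against 0.29 to 0.354 CPM (5.31 ± 0.37), and Myl6b, a light chain of slow fibers, at 2.87 to 10.7 CPM against 0.132 to 0.354 CPM (5.15 ± 0.56). Sv2b, a synaptic vesicle protein, was at 47.4, 5.26, 8.77, and 4.28 CPM against 0.127 to 0.212 CPM (6.40 ± 1.03), and lost its call without psoas 1 or psoas 2 (adjusted p up to 0.0148). Mhrt, which overlaps Myh7 on the other strand, and Tpm3-rs7, a copy of Tpm3, rose by 7.97 and 5.74, but without a stated strand setting or a stated rule for shared reads their counts may be those of Myh7 and Tpm3.

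Among the most abundant genes that rose were also Actn2, the alpha-actinin of all fibers, at 1070, 1490, 1470, and 1570 CPM against 267, 223, and 504 CPM (log2 fold change 2.08 ± 0.33, adjusted p = 0.0019; up to 0.0116 without psoas 1 or psoas 2), and Ppp1r27, a phosphatase subunit, at 133 to 233 CPM against 29.2 to 65.6 CPM (1.98 ± 0.30). Lgi1 and Rspo3, secreted proteins chosen after their values were seen, were higher by 5.07 ± 0.37 and 5.10 ± 0.38, Rspo3 at 27.5, 19.4, 13.5, and 24 CPM against 0.607, 0.254, and 0.991 CPM.

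The largest falls were in genes of several kinds at low levels. Casr, the calcium-sensing receptor, was at 0.0684, 0.239, 0.718, and 0 CPM in soleus and at 15.4, 10.3, and 9.42 CPM in psoas (log2 fold change -5.63 ± 0.69, adjusted p = 0.00043). Rxfp2, the receptor of an insulin-like peptide, was at 0 to 0.0528 CPM against 0.951 to 1.77 CPM, at least 5.30-fold lower. Fgfbp1, which binds fibroblast growth factors, was at 0 to 0.179 CPM against 3.22 to 12.1 CPM (-5.89 ± 0.67), and Il12a, a cytokine subunit, at 0 to 0.319 CPM against 4.96 to 7.78 CPM (-5.14 ± 0.47). Cacna2d4, an accessory subunit of calcium channels, was at 0.0897 to 0.616 CPM against 6.78 to 13 CPM (-4.88 ± 0.44), Lrtm2 at 0 to 0.274 CPM against 2.96 to 5.17 CPM (-5.52 ± 0.57), and Cyp4f39 at 0.0684 to 0.792 CPM against 2.59 to 18.1 CPM (-5.09 ± 0.75). Fam83d was at 0 to 0.159 CPM against 2.56 to 3.3 CPM, at least 12.2-fold lower. EDL held Casr at 0.887 to 3.19 CPM, below every psoas library. Aqp4 and Nos1, both of the dystrophin complex at the membrane and chosen after their values were seen, were lower by -1.95 ± 0.23 and -1.99 ± 0.40, and Nos1 lost its call without EDL 2, any of psoas 1 to 3, or any of soleus 2 to 4 (adjusted p up to 0.0293).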

How the data were processed

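RNA was sequenced from whole muscles of mice in 10 libraries with a stranded total RNA kit. Read trimming by the authors used Trimmomatic 0.32 and covered psoas 1 and 2 and EDL 1 and 2. TopHat2 2.1.1 then placed the read pairs on GRCm38.p4, reads were counted per gene in R, and a minimum of 10 reads in 3 or more samples was required of each gene. The deposited values are raw counts without normalization. The strand setting and the handling of reads with several alignments are not given in the sources used here. All 16112 genes met the filter. The totals above set the depth, and a count of 0 was taken to allow 3 counts, which covers counting error only.

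Groups were taken from the labels. Counts were fitted with edgeR 4.0.16 in R 4.3.3 (TMM, quasi-likelihood test, no covariate), and the alternatives with DESeq2 1.42.0 and limma 3.58.1. The fit was checked on simulated counts. FPKM values were computed from summed exon lengths of GENCODE M21 (GRCm38), which gave 16032 genes a symbol, and symbols missing there were matched through RefSeq. A fold change against a group at or below 3 counts in each library is given as a lower bound, against the CPM that 3 counts give in the shallowest library of that group. Shared replicate numbers pair libraries of the same animal code only for number 1, so the numbers were not used as pairs.

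The libraries, gene lists, and tests were chosen with earlier results of these data known. Genes are named if they are called members of a list or needed to describe a family, if they are among the 12 that rose or the 12 that fell most (groups not overlapping, the higher group averaging 1 CPM or more, no predicted genes, no contractile isoforms), or if they are among the 8 called in each direction with the highest FPKM outside the contractile isoforms. Bdh1, Oxct1, Rspo3, Lgi1, Nos1, and Aqp4 were chosen after their values were seen. Some called members of the lists are counted but not reported here by name.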

Additional observations from a re-analysis of the deposited data

Results flagged for a closer look

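Of 196 genes named above, 16 had a soleus library whose gap to the nearest other, divided by the range of the group, passed Dixon's critical value for 4 samples, where chance gives about 1 group in 20. In soleus 1, Slc16a3 (ratio 0.859), Phkg1 (0.956), Eya4 (0.95), and Gadd45a (0.855) lay above the other soleus libraries toward the psoas level, and Idh2 (0.849) lay below them, also toward psoas. Sv2b (0.896) lay above them at 47.4 CPM against 4.28 to 8.77 CPM, away from psoas. In soleus 2, Myh4 (0.909) was at 113 CPM against 1550 to 1690 CPM, and Hoxc11 (0.832) and Mhrt (0.863) were high. In soleus 3, from the youngest mouse, Pln (0.894), Stim2 (0.872), and Fgf1 (0.964) were high and Camk2a (0.935) low. Six2 in soleus 2 and Rxfp2 in soleus 4 had a ratio of 1 because the other libraries held 0 counts, and Cyp4f39 in soleus 4 (0.874) was at 0.792 CPM against 0.0684 to 0.159 CPM. Each of these genes other than Pln was called with all libraries, and among them Idh2, Hoxc11, Six2, and Sv2b lost the call in fits without single libraries as given above.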

How the results depend on the processing

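Of the 917 genes called, counts moved by more than 1.5 times under 5 changes of method. DESeq2's Wald test gave 1382 (742 higher), a test against a fold change of 2 gave 176 (96 higher and 80 lower), an adjusted p under 0.05 gave 1563 (854 higher and 709 lower), read trimming as a covariate gave 566 (250 higher), and a replicate block gave 539 (277 higher and 262 lower). In the untrimmed 44-day libraries 294 genes were higher. Leaving out 1 library at a time gave 493 to 964 calls, 216 to 484 of them higher and 277 to 480 lower. Members of the gene programs called, 154 in all, numbered 50 in the test against a fold change of 2 and 101 with the replicate block. Of same-numbered libraries only those of number 1, which share the animal code 659, deviated together (r = 0.398 over 12713 genes), against -0.322 and -0.0707 for numbers 2 and 3, while soleus 4 and psoas 3, which share the code 765B, gave 0.468. With the animal code as a random effect 1005 genes were called. No gene checked changed direction under the 25 alternatives, and 88 of 195 called genes were called in all but the test against a fold change of 2. The cause of these shifts was not tested, and every trimmed library is labelled male and every untrimmed 44-day library female. With sex as a covariate, in a fit without soleus 3, 958 genes were called. The alternatives without Lars2 and ribosomal RNA genes (912 calls) and with low read mapping as a covariate (735) were chosen after seeing the data. With 3 counts worth 0.0792 to 0.239 CPM after TMM scaling, differences among genes near that level were not detectable.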
